A study of Mus musculus with 12 samples.

Results

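The 8 genes described here encode myosin light chains: Myl1, Mylpf, Myl4, Myl3 and Myl2, the chains of striated muscle, and Myl6, Myl6b and Myl9, the chains found outside it or in smooth muscle. They were chosen by name and by no measured value, but with earlier results of these data known. All 8 were found among the 22350 protein-coding genes of the annotation. Each was read at every annotated transcription start site (TSS) and over its gene body in 12 ChIP-seq libraries, 1 for each of 6 histone marks in myoblasts and in myotubes, and Myl1 was also read over the 20 kb after its end. The cells were C2C12, an immortal mouse myoblast line derived from strain C3H, at passages 15 to 18. Myoblasts were taken near confluence in 10% serum. Myotubes, the fused and differentiated cells, were taken after about 5 days without serum and were parted from unfused cells with mild trypsin. All libraries thus come from a single line, there are no replicates, and the cells carry no genetic change or drug treatment named in the labels. Because each library pools many cells, a mark on more cells and more of a mark per cell cannot be told apart.

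A muscle myosin molecule is built from heavy chains, and the neck of each heavy chain is wrapped by an essential and a regulatory light chain. The essential chain stiffens the neck as a lever arm, and the regulatory chain is phosphorylated by myosin light chain kinases, which starts contraction in smooth muscle and tunes it in striated muscle. Fast, slow, embryonic, cardiac and non-muscle myosins use different light chains, and muscle differentiation switches on the striated ones. Of the 6 marks, H3K4me3 lies at active promoters and H3K27ac at active promoters and enhancers. H3K4me2 and H3K4me1 flank promoters and lie on enhancers, H3K36me3 covers transcribed gene bodies, and H3K27me3 is laid down by Polycomb proteins on silent genes.

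The libraries held between 1858771 and 7033100 reads, which gives 1.45 to 5.50 reads in a 2 kb window by the library mean. A level is given as fold over that mean, after reads were extended to 150 bp and counted by their midpoints within 1 kb of a TSS. A ratio is the myotube level over the myoblast level with an exact conditional binomial 95% interval, which covers counting error only. A gene was called higher at a ratio of 2 or more and lower at 0.5 or less, provided the 2 libraries held 20 reads or more between them, and a count of 0 was replaced by a floor of 3 reads. No p-value was computed, since each comparison is 1 library against 1 library. The labelled cell types were checked on marker genes: H3K4me3 was called higher in myotubes at 5 of 5 myotube markers and lower at 3 of 5 myoblast markers (Pax7, Ccnb1 and Mki67), while Myod1 had a ratio of 1.34. Of 9 markers of fat, bone, endothelium and blood cells, Pparg carried H3K4me3 at 24.4-fold in myoblasts and 14.0-fold in myotubes, and the other 8 lay at or below 2.77-fold in both.

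The reference sequences that the results turn on are given first, read from the mm9 genome in the direction of transcription. Promoters run from 250 bases before the start to 50 bases from it. Capitals mark the motifs searched on both strands: the E-box CANNTG, which binds MyoD family factors, the MEF2 site, the CArG box, which binds serum response factor, and the sequence TATAAA. The first set holds 5 of the starts whose active marks were higher in myotubes, 2 of Myl1 and 1 each of Mylpf, Myl4 and Myl2.
Myl1, first start, chr1:66991668-66991967, minus strand: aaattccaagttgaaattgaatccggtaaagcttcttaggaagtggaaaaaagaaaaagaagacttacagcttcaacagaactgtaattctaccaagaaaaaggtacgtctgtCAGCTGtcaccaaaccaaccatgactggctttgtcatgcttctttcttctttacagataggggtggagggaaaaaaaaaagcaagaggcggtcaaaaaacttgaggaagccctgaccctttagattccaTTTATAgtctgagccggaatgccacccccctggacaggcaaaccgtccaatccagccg
Myl1, internal start, chr1:66981879-66982178, minus strand: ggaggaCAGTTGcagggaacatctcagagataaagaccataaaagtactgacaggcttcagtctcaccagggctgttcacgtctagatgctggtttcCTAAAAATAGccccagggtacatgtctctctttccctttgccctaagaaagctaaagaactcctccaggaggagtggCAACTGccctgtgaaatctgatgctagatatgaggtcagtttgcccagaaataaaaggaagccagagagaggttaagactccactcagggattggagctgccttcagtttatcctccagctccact
Mylpf, first start, chr7:134354872-134355171, plus strand: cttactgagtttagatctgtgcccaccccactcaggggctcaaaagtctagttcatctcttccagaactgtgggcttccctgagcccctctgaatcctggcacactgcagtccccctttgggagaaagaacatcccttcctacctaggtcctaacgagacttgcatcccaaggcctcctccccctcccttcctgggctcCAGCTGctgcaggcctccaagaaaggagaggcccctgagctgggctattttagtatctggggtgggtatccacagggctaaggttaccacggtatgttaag
Myl4, internal start, chr11:104438049-104438348, plus strand: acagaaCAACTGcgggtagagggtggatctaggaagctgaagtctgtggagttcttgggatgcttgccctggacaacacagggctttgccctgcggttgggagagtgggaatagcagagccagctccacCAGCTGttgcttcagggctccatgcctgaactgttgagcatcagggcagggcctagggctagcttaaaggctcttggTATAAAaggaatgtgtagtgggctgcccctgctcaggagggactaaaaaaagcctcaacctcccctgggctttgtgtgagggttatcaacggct
Myl2, upstream RefSeq start, chr5:122542948-122543247, plus strand: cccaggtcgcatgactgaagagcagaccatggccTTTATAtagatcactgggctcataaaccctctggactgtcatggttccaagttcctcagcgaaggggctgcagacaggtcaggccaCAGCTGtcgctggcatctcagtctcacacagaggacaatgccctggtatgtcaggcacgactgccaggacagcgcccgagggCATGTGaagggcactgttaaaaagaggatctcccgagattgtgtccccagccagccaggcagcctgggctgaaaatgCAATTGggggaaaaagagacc
The second set is for contrast, a start that Myl4 shares with a neighbour and the start of Myl9, both marked in myoblasts already.
Myl4, first start, chr11:104411727-104412026, plus strand: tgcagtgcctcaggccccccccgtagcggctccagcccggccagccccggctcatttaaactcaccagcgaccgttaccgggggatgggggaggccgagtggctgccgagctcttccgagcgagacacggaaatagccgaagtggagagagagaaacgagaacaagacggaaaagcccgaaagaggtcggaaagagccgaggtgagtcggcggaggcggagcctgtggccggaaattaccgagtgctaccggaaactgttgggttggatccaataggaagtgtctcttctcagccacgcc
Myl9, start, chr2:156600940-156601239, plus strand: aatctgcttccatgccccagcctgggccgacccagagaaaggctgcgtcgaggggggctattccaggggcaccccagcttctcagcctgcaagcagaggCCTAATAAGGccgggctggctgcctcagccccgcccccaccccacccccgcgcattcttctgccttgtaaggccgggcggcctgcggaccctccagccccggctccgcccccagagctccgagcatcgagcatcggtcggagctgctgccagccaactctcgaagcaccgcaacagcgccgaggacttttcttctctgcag
The last is the middle of the acetylated window after the end of Myl1.
Myl1, downstream window, chr1:66969519-66969818, minus strand: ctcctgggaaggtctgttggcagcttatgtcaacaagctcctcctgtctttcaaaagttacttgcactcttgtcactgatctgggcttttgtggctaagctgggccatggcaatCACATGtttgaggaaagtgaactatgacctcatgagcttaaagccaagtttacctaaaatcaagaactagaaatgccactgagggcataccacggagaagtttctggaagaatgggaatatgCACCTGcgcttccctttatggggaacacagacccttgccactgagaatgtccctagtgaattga

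With positions counted from 1 at the start and from -1 before it, the E-box CAGCTG stood at -137 at the first Myl1 start, at -51 at Mylpf, at -121 at the internal Myl4 start and at -130 at the upstream Myl2 start. CAGCTG is a subset of CANNTG. All shares of promoters given here were taken at the main start of each gene, the one with the most H3K4me3 reads. There CAGCTG was present in 15.4% of 22345 promoters of the same length, while any E-box was present in 67.7%. The CAGCTG positions above are at other starts, and at its main start no member held CAGCTG. The internal Myl1 start had no CAGCTG but held other E-boxes at -244 and -76, and a MEF2 site at -153, a motif present in 0.443% of promoters. TATAAA stood at -44 before the internal Myl4 start and was present in 12.5% of promoters. The internal Myl4 promoter printed is that of position 104438299, while the reads of its group of starts were counted around position 104438595, where CAGCTG stood at -27 and TATAAA, on the other strand, at 2. The main starts of Mylpf and Myl2, at positions 134356193 and 122553188, are not printed: that of Mylpf held none of the motifs and that of Myl2 one E-box, CATTTG at -49, and no CAGCTG. The Myl9 promoter held a CArG box at -151, present in 1.34% of promoters, and neither E-box nor MEF2 site, the first Myl3 start, not printed, held a CArG box at -53 with other E-boxes, and the first Myl4 start held none of the motifs. The 300 bp downstream of Myl1 held 2 E-boxes, CACATG and CACCTG, and no MEF2 site or CArG box. The promoters also differed in CpG content: the first Myl4 start held 25 CpG, Myl9 and Myl6b 20 each and Myl6 15, against 6 and 1 at the Myl1 starts, 2 at Mylpf, 3 at the internal Myl4 start and 7 at the upstream Myl2 start. The main starts of Mylpf and Myl2 held 7 and 10. At the Myl3 starts, which had little H3K4me3 or H3K27ac in either cell type, there were 1 to 4. The median over the main starts of all genes was 13.0 CpG.

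Over the 8 genes, H3K4me3 was called higher in myotubes at 4 of 7 genes with enough reads, Myl1, Mylpf, Myl2 and Myl6b, and lower at none. Over all protein-coding genes tested, 3.88% were called higher and 8.03% lower. H3K27ac was called higher at the same 4 of 7, against 5.96% of all genes, and lower at none, against 40.9%. H3K4me2 was called higher at Myl1, Mylpf and Myl2, 3 of 7, against 2.54% of all genes, and lower at none, against 36.6%. H3K4me1 was called at a different trio, Myl4, Myl6 and Myl6b, 3 of 7, against 9.95% higher and 20.5% lower over all genes. Only Myl2 had enough H3K27me3 reads to be tested at its main start, and it was not called; over all genes 2.50% were higher and 24.2% lower. H3K36me3 over the gene body was called higher at 4 of 8, Mylpf, Myl4, Myl3 and Myl2, against 7.55% higher and 7.10% lower over all genes. The median ratio of the tested members was 2.03 for H3K4me3, 1.40 for H3K4me2, 3.46 for H3K27ac and 2.25 for H3K36me3, where the medians over all tested genes were 0.869, 0.590, 0.577 and 1.01. These low medians mean that the median promoter had a smaller share of the H3K4me2 and H3K27ac reads in myotubes than in myoblasts. Among the 5 striated chains the median H3K4me3 ratio of the 4 tested was 10.5, and among the 3 others it was 1.03.

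**Figure D1:**
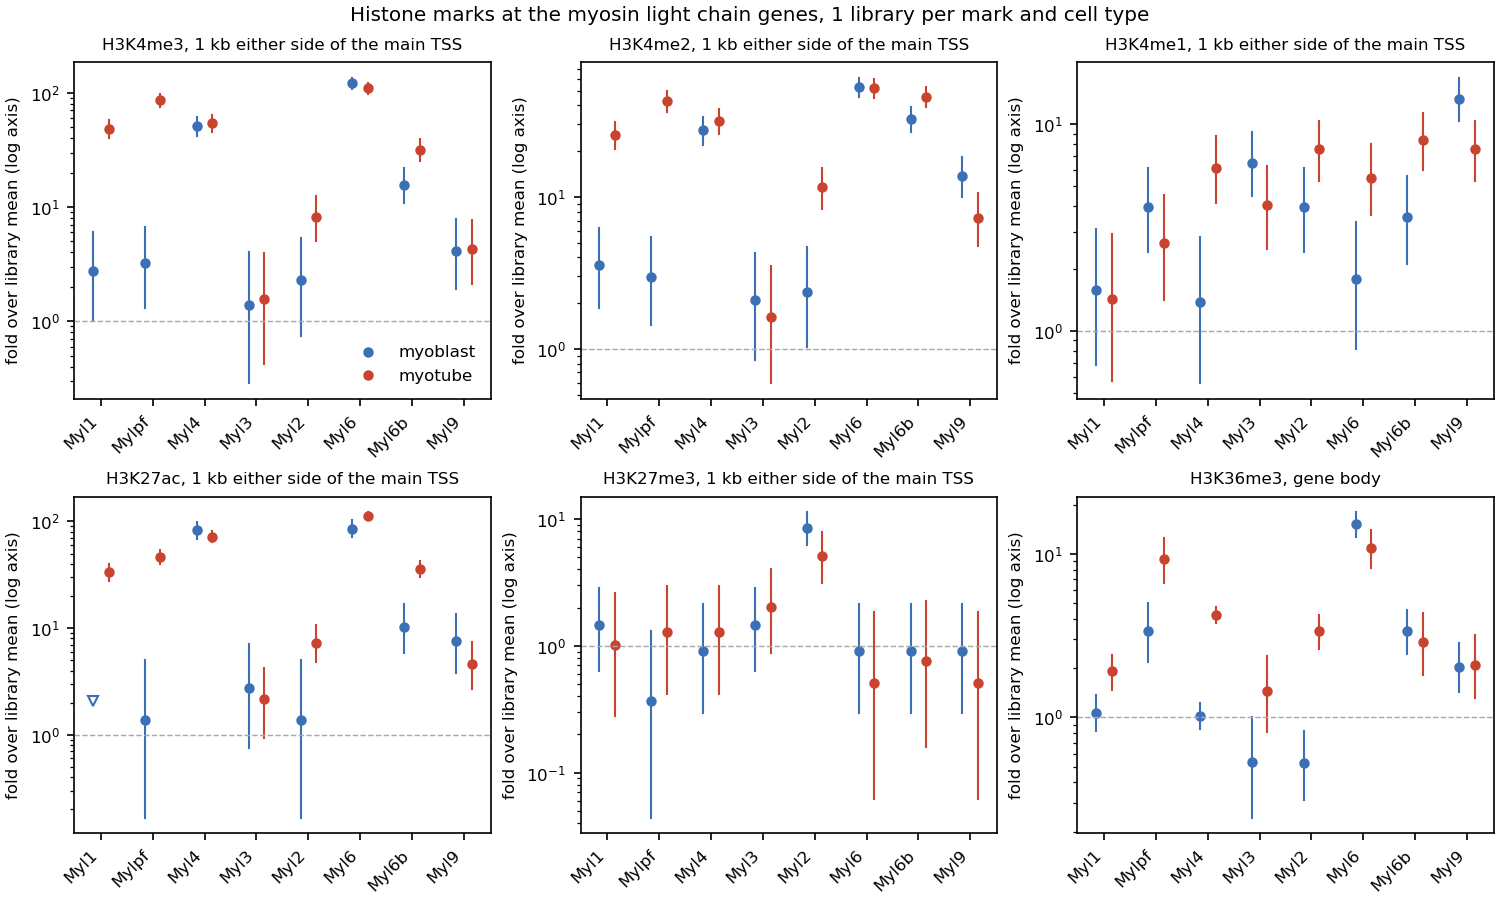
Level of each mark at the 8 genes as fold over the library mean (log axis), for the main TSS or, for H3K36me3, the gene body, in myoblasts (blue) and myotubes (red), with Poisson 95% intervals of the count; an open triangle marks a count of 0, drawn at 3 reads, and the dashed line is the library mean. H3K4me3 at Myl1 and Mylpf rises from 2.77 and 3.23 to 48.5 and 86.1, Myl6 sits above 100 in both cell types, and Myl2 alone has H3K27me3 well above the mean.

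Myl1 encodes the longer and the shorter essential light chain of fast skeletal muscle from separate starts within one gene (chr1:66970869-66991978, minus strand). Its starts lie 9789 bp apart, so that the internal start lies in an intron of the longer transcripts. At the first start, H3K4me3 went from 2 reads in myoblasts to 87 in myotubes, a ratio of 36.6 (9.83 to 307). At the internal start it went from 6 reads to 125, from 2.77-fold to 48.5-fold, a ratio of 17.5 (7.83 to 48.7). Neither start had a deposited H3K4me3 peak in myoblasts, and both had one in myotubes. H3K27ac was 1 and 108 reads at the first start and 0 and 123 at the internal one, at least 16.1-fold higher in myotubes at the latter. H3K4me2 was 5 and 65 reads at the first start and 12 and 95 at the internal start, a ratio there of 7.15 (3.91 to 14.3). The H3K4me2 reads of myoblasts at the internal start were enough for a small deposited peak of 489 bp with a score of 59.4, the one myoblast peak of any mark found on Myl1 or in the 20 kb after it. In myotubes the deposited H3K4me3 peaks were broad, 8.71 kb over the internal start and 5.83 kb over the first start, longer than 99.9% and 99.0% of the peaks in that list. H3K4me1 within 1 kb of the internal start was 8 and 7 reads, below the limit for a call, while over the whole gene body it went from 52 to 169 reads, a ratio of 3.36 (2.45 to 4.67).

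H3K27me3 around the first Myl1 start was 14 reads in myoblasts and 0 in myotubes, at most 0.300-fold, but with under 20 reads in all it was not called. Over the gene body it was 86 and 38 reads, 1.49-fold and 0.918-fold over the mean, a ratio of 0.618 (0.411 to 0.916). These levels are low beside those of Myl2 below. H3K36me3 over the Myl1 body was 62 and 68 reads, a ratio of 1.79 (1.25 to 2.57), so it rose less than the call required although both starts gained the promoter marks. The 3 deposited H3K36me3 peaks of myotubes on Myl1 all lay near its 3' end, between bases 66972065 and 66973917.

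The 20 kb after Myl1 holds no annotated gene, and an enhancer of the gene is known on this side in rodents. Over the whole 20 kb, H3K27ac went from 6 reads to 159, a ratio of 10.4 (4.68 to 28.8), H3K4me2 from 13 to 83 (5.76, 3.19 to 11.3) and H3K4me1 from 42 to 132 (3.25, 2.28 to 4.71). H3K4me3 went from 19 to 30 reads, a ratio of 1.33 (0.723 to 2.50). The 1 kb window with the most H3K27ac, H3K4me1 and H3K4me2 reads in both cell types together was chr1:66969169-66970168, centred 1200 bp after the gene end and 22049 bp after the first start. There H3K27ac was 4 reads in myoblasts and 67 in myotubes, 5.50-fold and 36.3-fold over the mean, a ratio of 6.59 (2.46 to 24.9). Since the window was picked on its reads, its levels are a description. H3K4me1 in it was 10 and 18 reads, H3K4me2 6 and 15, and H3K4me3 4 and 3. In the 2 kb window picked the same way, the width read at the starts, H3K27ac in myotubes was 28.1-fold. The Myl1 starts, which were not picked on H3K27ac, had 29.2-fold and 33.3-fold. H3K4me3 in this 2 kb window was 4 reads in myoblasts and 5 in myotubes. The myotube list held H3K27ac peaks here at chr1:66968821-66970192 (score 1361.27) and chr1:66967424-66968778 (score 428.09), and several short H3K4me2 and H3K4me1 peaks.

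**Figure D2:**
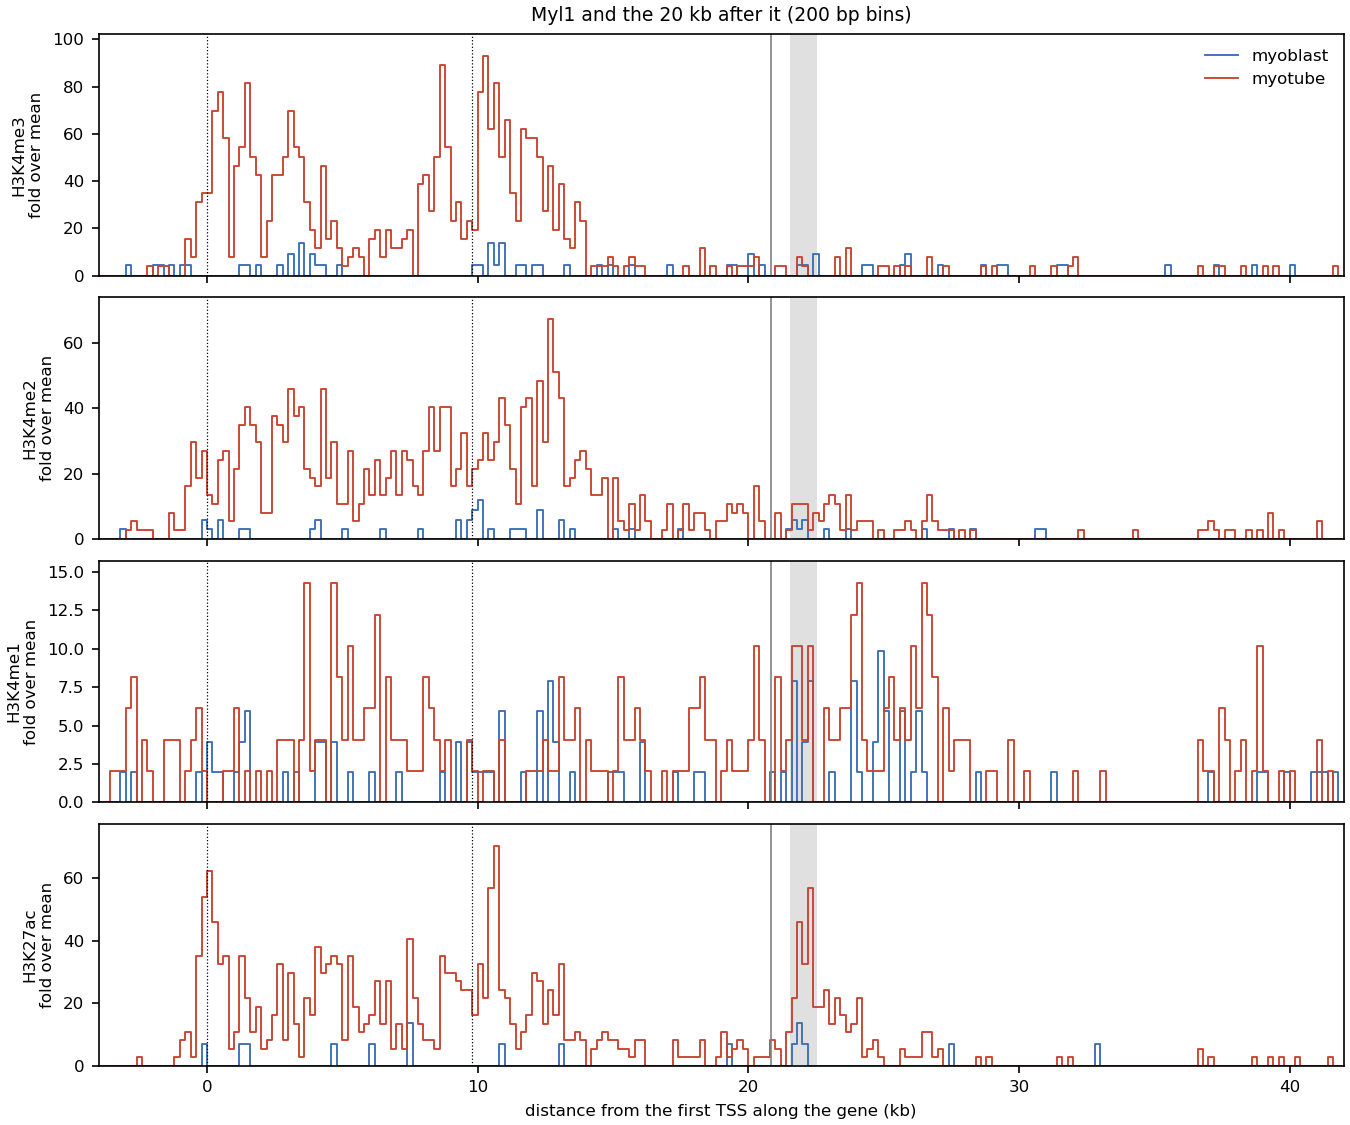
Fold over the library mean (linear axes) in 200 bp bins along Myl1 and the 20 kb after it, by distance from the first start in kb, in myoblasts (blue) and myotubes (red); dotted lines are the starts, the grey line the gene end and the grey band the 1 kb downstream window. H3K4me3 of myotubes covers both starts and ends before the gene does, while H3K27ac has a further summit in the band, with 67 reads against 4 in myoblasts.

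Myl4 encodes the essential light chain of embryonic muscle and the atrium (chr11:104411977-104457067, plus strand). The annotation gives it 6 groups of starts, where starts under 500 bp apart form a group. The first lies 43 bp from the start of Cdc27, a subunit of the anaphase-promoting complex that is transcribed the other way, so reads there cannot be assigned to either gene. It carried H3K4me3 at 110 and 139 reads, 50.7-fold and 53.9-fold, a ratio of 1.06 (0.822 to 1.38). H3K27ac there was 121 and 266 reads, a ratio of 0.865 (0.695 to 1.08) by total reads and 1.53 when scaled to the median promoter, so that no direction can be given. Cdc27 was also the gene with the marks most like those of this start, 0.26 apart in root mean square log2 level over 12 libraries, and the windows of both genes share most of their bases.

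The third group of starts, 26618 bp downstream, carried almost no H3K4me3, H3K4me2 or H3K27ac in myoblasts. H3K4me3 went from 1 read in myoblasts to 105 in myotubes, a ratio of 88.3 (15.5 to 3521), H3K4me2 from 2 to 97 (43.8, 11.8 to 367) and H3K27ac from 2 to 242 (47.6, 13.0 to 395). Its myotube levels were 40.7-fold for H3K4me3 and 65.5-fold for H3K27ac. At the main starts of Myl1 and Mylpf, H3K4me3 was 48.5-fold and 86.1-fold and H3K27ac 33.3-fold and 46.3-fold. A myotube H3K4me3 peak of 5.98 kb ran over it and the next 2 groups of starts. H3K36me3 within 1 kb of the fourth group of starts went from 6 to 44 reads, from 1.09-fold to 13.0-fold (ratio interval 5.08 to 34.3), while at the first start it was 7 and 4 reads. All 7 deposited H3K36me3 peaks of myotubes on Myl4 lay after the third group of starts, and over the whole body H3K36me3 went from 127 to 322 reads, a ratio of 4.13 (3.36 to 5.12). If the start next to Cdc27 is left aside and the third group is used, an alternative chosen after the data were seen, Myl4 is called higher for H3K4me3, H3K4me2, H3K4me1 and H3K27ac.

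Between the first and the third group of starts lay a pair of wide acetylated regions. In chr11:104418891-104425388, H3K27ac was 34 reads in myoblasts and 487 in myotubes, 7.20-fold and 40.6-fold, a ratio of 5.63 (3.98 to 8.23). In chr11:104426106-104430363, within the second intron of the transcript that begins at the first start, it was 5 and 279 reads, a ratio of 21.9 (9.29 to 68.1). Both are myotube peaks with a score of 3100, so their myotube level was used to define them. Within them lay H3K4me1 peaks of myoblasts, including chr11:104422628-104423271 and chr11:104426308-104427824. A further peak in each is described here, chr11:104421557-104422541 in the first intron and chr11:104428194-104430242 in the second. The first of these had H3K4me1 at 22.9-fold in myoblasts and 28.2-fold in myotubes, with 57 and 68 reads, and H3K27ac at 20 and 131 reads. The other had H3K4me1 at 10.0-fold and 17.9-fold, with 52 and 90 reads, and H3K27ac at 3 and 173 reads. Both were defined by their H3K4me1 in myoblasts, so that level is a description. Acetylation was present in myoblasts at the first, and there was next to none at the other. H3K4me3 in the 2 wide regions stayed far below that of the starts, at 7.52-fold and 4.56-fold in myotubes.

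**Figure D3:**
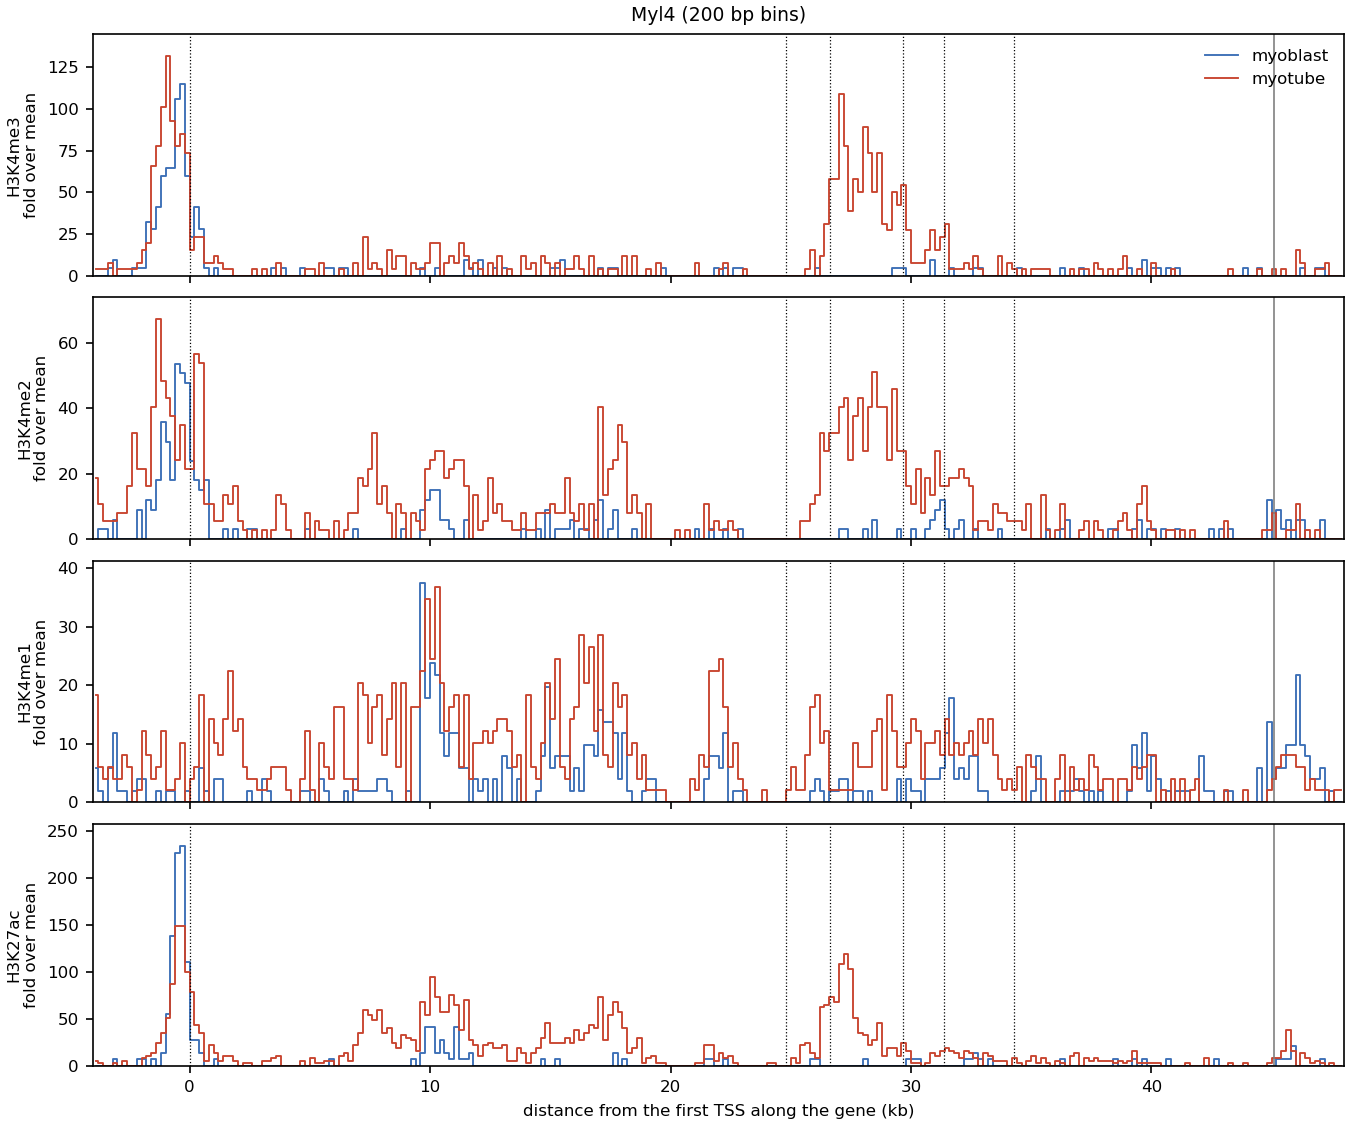
Fold over the library mean (linear axes) in 200 bp bins along Myl4, by distance from its first start in kb, in myoblasts (blue) and myotubes (red); dotted lines are the 6 groups of starts and the grey line the gene end. The first start is marked in both cell types and the third group, 26618 bp on, in myotubes. Between them H3K27ac of myotubes rises over regions that hold deposited H3K4me1 peaks of myoblasts.

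Myl3 encodes the essential light chain of slow muscle and the ventricle (chr9:110666150-110672308, plus strand). At none of its 3 groups of starts did H3K4me3 or H3K27ac pass 3.44-fold in either cell type: H3K4me3 was 0 to 3 reads in myoblasts and 1 to 4 in myotubes, and H3K27ac 1 to 5 and 1 to 8. Its second group of starts lay under a myoblast H3K4me1 peak (score 222.55), where H3K4me1 was 33 and 20 reads within 1 kb. This group, used as the main start, begins no protein-coding transcript in the annotation. H3K36me3 over the body was called higher on 9 and 15 reads, a ratio of 2.72 (1.11 to 7.04), but the myotube level was only 1.44-fold over the mean. H3K27me3 over the body was 28 and 40 reads, 1.66-fold and 3.31-fold, a ratio of 2.00 (1.20 to 3.36), which becomes 1.44 when scaled to the median gene body. Myl3 was thus the one striated chain with no deposited H3K4me3 or H3K27ac peak at a start in myotubes.

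Mylpf encodes the regulatory light chain of fast skeletal muscle and is a short gene (chr7:134355122-134357812, plus strand). H3K4me3 at its first start went from 8 reads in myoblasts to 149 in myotubes, a ratio of 15.7 with a lower bound of 7.75. Within 1 kb of the start 1071 bp further on, the window with the most reads, it went from 7 to 222, from 3.23-fold to 86.1-fold, above 99.6% of protein-coding genes in myotubes and 46.9% in myoblasts. This was the largest H3K4me3 level of the striated chains at their main starts. H3K27ac at the first start went from 10 to 230 reads (9.05, 4.83 to 19.1) and at the next from 2 to 171 (33.6, 9.17 to 280). H3K4me2 at the latter went from 10 to 158 reads (14.3, 7.55 to 30.3), and H3K36me3 over the body from 25 to 42 (2.74, 1.63 to 4.69). The windows of neighbouring Mylpf starts overlap, so reads in the overlap are counted at each. Sept1 and Tbc1d10b have starts within 3517 bp of the first Mylpf start.

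Unlike at Myl1, the upstream side of Mylpf was marked in myoblasts. A myoblast H3K4me1 peak (score 432.38) covered chr7:134353429-134355399, which holds the first start and lies mostly before it. In it H3K4me1 was 71 reads in myoblasts and 55 in myotubes, 14.2-fold and 11.4-fold, a description since this mark defined the region, while H3K27ac went from 13 to 277 reads (8.38, 4.82 to 15.9) and H3K4me3 from 6 to 68 (9.53, 4.16 to 26.9). The acetylation went from 9.08-fold to 76.1-fold, so some was already there in myoblasts. H3K27me3 at the 3 groups of starts was 2 to 4 reads in myoblasts and 3 to 7 in myotubes.

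Myl2 encodes the regulatory light chain of slow muscle and the ventricle (chr5:122550960-122563481, plus strand). It carried the most H3K27me3 of the 8 genes at their starts: H3K27me3 within 1 kb of its main start was 47 reads in myoblasts, 8.57-fold over the mean and above 99.4% of protein-coding genes. In myotubes it was 20 reads and 5.10-fold, above 98.8%, a ratio of 0.596 (0.334 to 1.02). Over the body it was 202 and 98 reads, a ratio of 0.679 (0.528 to 0.868), and within 1 kb of its first group of starts 41 and 14, a ratio of 0.478 (0.241 to 0.895). Scaled to the median promoter these starts had ratios of 0.851 and 0.683, and scaled to the median gene body the body had 0.490. Active marks rose on the same windows. The windows of neighbouring Myl2 groups overlap, so reads in the overlap are counted at each. The main start, in the second group, begins no protein-coding transcript in the annotation, while the first group begins 8. At the first group H3K4me3 went from 3 to 18 reads (5.05, 1.47 to 26.7) and H3K27ac from 2 to 33 (6.49, 1.66 to 55.8). H3K4me3 at the main start went from 5 to 21 reads (3.53, lower bound 1.30), H3K4me2 from 8 to 43 (4.85, 2.25 to 11.9), H3K27ac from 2 to 27 (5.31, 1.33 to 46.1) and H3K36me3 over the body from 18 to 71 (6.43, 3.79 to 11.5). In myotubes Myl2 had H3K27me3 above the mean together with H3K4me3 of 8.15-fold, against 48.5-fold at Myl1 and 86.1-fold at Mylpf. Whether both lie on the same chromosomes was not measured.

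RefSeq gives Myl2 further starts upstream, whose promoter sequences matched mm9 exactly at chr5:122542483-122542782 and chr5:122542948-122543247, 8227 and 7762 bp before the first base of the gene in the annotation used for all counts. They were read after the data were seen and are a description. Within 1 kb of the nearer one, H3K27ac went from 1 read to 132, a ratio of 51.9 (9.16 to 2066), and H3K4me3 from 1 to 36 (30.3, 5.10 to 1229). H3K4me1 there went from 17 to 47 reads (2.85, 1.61 to 5.30), and H3K27me3 from 33 to 9 (0.382, 0.161 to 0.815). The myotube H3K27ac level there, 35.7-fold, was above the 7.31-fold at the main start within the gene and near the 33.3-fold of Myl1. H3K4me2 was 11.3-fold at the nearer start and 11.6-fold at the main one. At the farther start H3K27me3 went from 33 to 12 reads, a ratio of 0.509 whose interval, 0.239 to 1.01, includes 1.

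**Figure D4:**
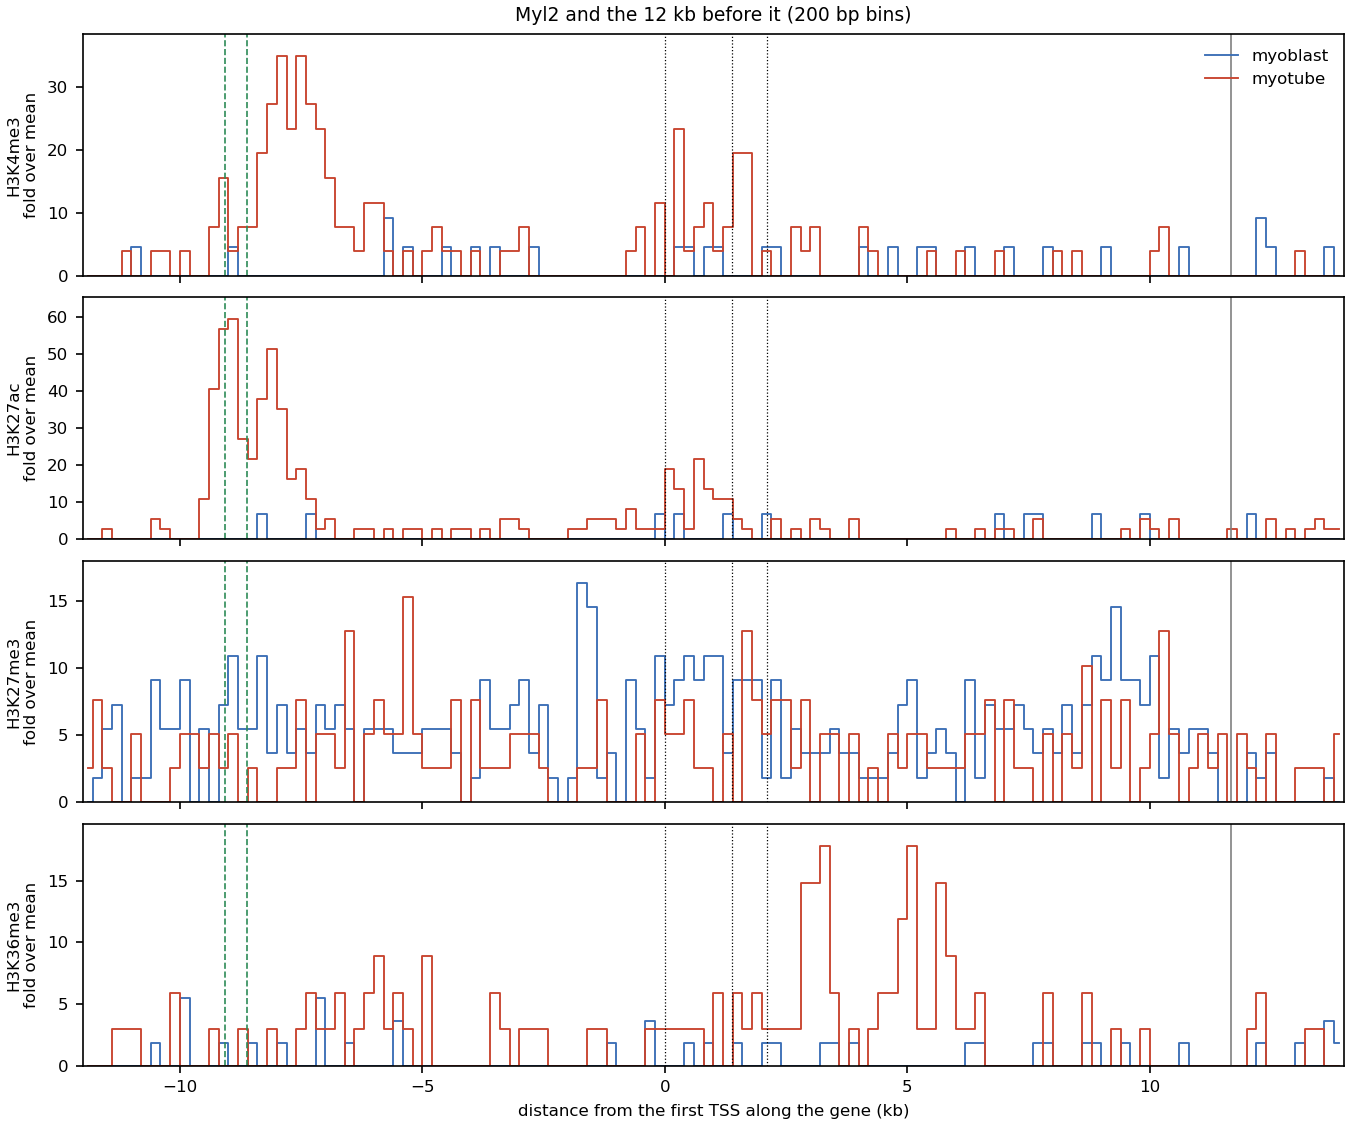
Fold over the library mean (linear axes) in 200 bp bins along Myl2 and the 12 kb before it, by distance from its first group of starts in kb, in myoblasts (blue) and myotubes (red); dotted lines are the annotated groups of starts, green dashed lines the upstream RefSeq starts and the grey line the gene end. H3K27me3 covers the whole stretch in myoblasts, and H3K27ac of myotubes reaches 35.7-fold within 1 kb of the nearer upstream start.

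Deposited peaks of the members depended on which list was read for the K27 marks. As deposited, the myoblast list of the H3K27ac sample held a peak at a start of 1 member, Myl2 (chr5:122551414-122554978, score 263.83), where the H3K27me3 library had 70 reads and the H3K27ac library 4. The myoblast list of the H3K27me3 sample held peaks at Mylpf, Myl4, Myl6, Myl6b and Myl9, for example chr7:134354300-134354928 at Mylpf with 0 H3K27me3 and 8 H3K27ac reads. The names of these lists also go against the labels of their samples, and no result here other than these peak counts rests on them. For the other marks, H3K4me3 peaks overlapped a start window of 3 members in myoblasts and 7 in myotubes, H3K4me2 peaks 5 and 7, H3K4me1 peaks 6 and 3, and H3K36me3 peaks 0 and 3. H3K27ac peaks overlapped 7 in myotubes, all but Myl3, and H3K27me3 peaks 2 in myotubes, Myl3 and Myl2. These counts take any start of a member. At the main start alone, 10924 of 22350 protein-coding genes had an H3K4me3 peak in myoblasts and 10969 in myotubes. No such share is given for the other marks or for any start, so the member counts cannot be set against all genes. The H3K4me3 lists held 12608 peaks in myoblasts and 17936 in myotubes. Those of H3K4me2 held 38022 and 57087, those of H3K4me1 67351 and 92650, and those of H3K36me3 82750 and 62900. With a score of 100 or more, 3 and 5 members had an H3K4me3 peak at a start. The H3K4me1 lists differ in kind, since the myoblast peaks at the members were up to 4053 bp long and the myotube peaks up to 365 bp.

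Myl6 and Myl6b lie head to tail on chromosome 10 with starts 4810 bp apart. Myl6 (chr10:127927916-127930931, minus strand) encodes the essential light chain of non-muscle and smooth muscle myosin, and Myl6b (chr10:127931213-127935741, minus strand) a close relative used in slow muscle and outside muscle. Myl6 had the highest H3K4me3, H3K4me2, H3K27ac and H3K36me3 levels of the 8 in both cell types: H3K4me3 was 262 reads in myoblasts and 283 in myotubes, 121-fold and 110-fold, a ratio of 0.909 (0.765 to 1.08). H3K27ac was 124 and 414 reads, a ratio of 1.31 (1.07 to 1.62), which becomes 2.32 when scaled to the median promoter. H3K36me3 over the body was 126 and 55 reads, 15.2-fold and 10.8-fold, a ratio of 0.712 (0.509 to 0.985). Myl6 was thus marked at its start in both cell types, and its H3K36me3 was somewhat lower in myotubes, short of a call. H3K4me1 at the start was 9 and 27 reads, a ratio of 3.10 (1.41 to 7.49), from a level near the mean.

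Myl6b was called higher for H3K4me3 and H3K27ac and Myl6 was not, although with scaling to the median promoter Myl6 passed the call for H3K27ac too. H3K4me3 at its start was 34 reads in myoblasts and 82 in myotubes, 15.7-fold and 31.8-fold, a ratio of 2.03 (1.34 to 3.12). H3K27ac was 15 and 132 reads, a ratio of 3.46 (2.02 to 6.36), and H3K4me1 18 and 41 (2.35, 1.32 to 4.35). The H3K4me3 call lay just at the limit of 2. Inside Myl6b, over a myoblast H3K4me2 peak at chr10:127933853-127934700, H3K27ac went from 9 to 142 reads (6.21, 3.18 to 13.9) and H3K4me3 from 3 to 38 (10.7, 3.38 to 53.9). In myoblasts the H3K4me3 peak of Myl6 ended within Myl6b, and in myotubes a single H3K4me3 peak of 7.56 kb ran from Myl6 over the whole of Myl6b. H3K36me3 over Myl6b was 42 and 22 reads, a ratio of 0.854 (0.486 to 1.46), an interval that includes 1. The lincRNA A430046D13Rik starts 679 bp from Myl6b on the other strand, and reads between them cannot be assigned.

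Myl9 encodes the regulatory light chain of smooth muscle and non-muscle myosin (chr2:156601156-156607394, plus strand). In contrast to Myl6 it had little H3K4me3, 9 reads in myoblasts and 11 in myotubes, 4.15-fold and 4.27-fold, a ratio of 1.03 (0.387 to 2.81). In myoblasts its gene body carried H3K4me1, H3K4me2 and H3K27ac above the library mean, and enhancer activity was not tested. H3K4me1 over the body was 277 and 118 reads, 17.5-fold and 7.71-fold, above 99.5% and 97.4% of protein-coding genes, a ratio of 0.440 (0.352 to 0.548). H3K4me2 over the body was 136 and 67 reads, a ratio of 0.445 (0.327 to 0.600), and H3K27ac 50 and 58, a ratio of 0.456 (0.307 to 0.680). Of the 8 genes, Myl9 was the one with body ratios by total reads under 0.5 for these 3 marks. Scaled to the median gene body the ratios were 0.411 for H3K4me1, 0.514 for H3K4me2 and 0.638 for H3K27ac, so that only H3K4me1 stayed under 0.5. The share of all genes with body ratios under 0.5 was not counted for these marks. Median ratios over all tested gene bodies were 0.985 for H3K4me1, 0.879 for H3K4me2 and 0.787 for H3K27ac. The myoblast H3K4me1 peak chr2:156603763-156607321, 3.56 kb over the 3' part of the gene with a score of 1153.72, had 186 H3K4me1 reads in myoblasts and 66 in myotubes, 20.6-fold and 7.56-fold. It was defined by its myoblast H3K4me1, so these values are a description. At the first group of starts, the main one, no mark reached the call. H3K4me1 there was 67 and 37 reads (0.570, 0.371 to 0.864) and H3K4me2 46 and 27 (0.530, 0.317 to 0.870). H3K27ac there, 11 and 17 reads, had a ratio of 0.608 by total reads and 1.08 when scaled to the median promoter. At the second group, 3063 bp on, H3K4me2 went from 60 to 19 reads (0.286, 0.161 to 0.486) and H3K4me1 from 114 to 50 (0.453, 0.318 to 0.637). Both were called lower, and scaled to the median promoter the ratios were 0.461 and 0.468. H3K36me3 over the body was 35 and 22 reads, 2.04-fold and 2.09-fold, a ratio of 1.03 (0.573 to 1.80).

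**Figure D5:**
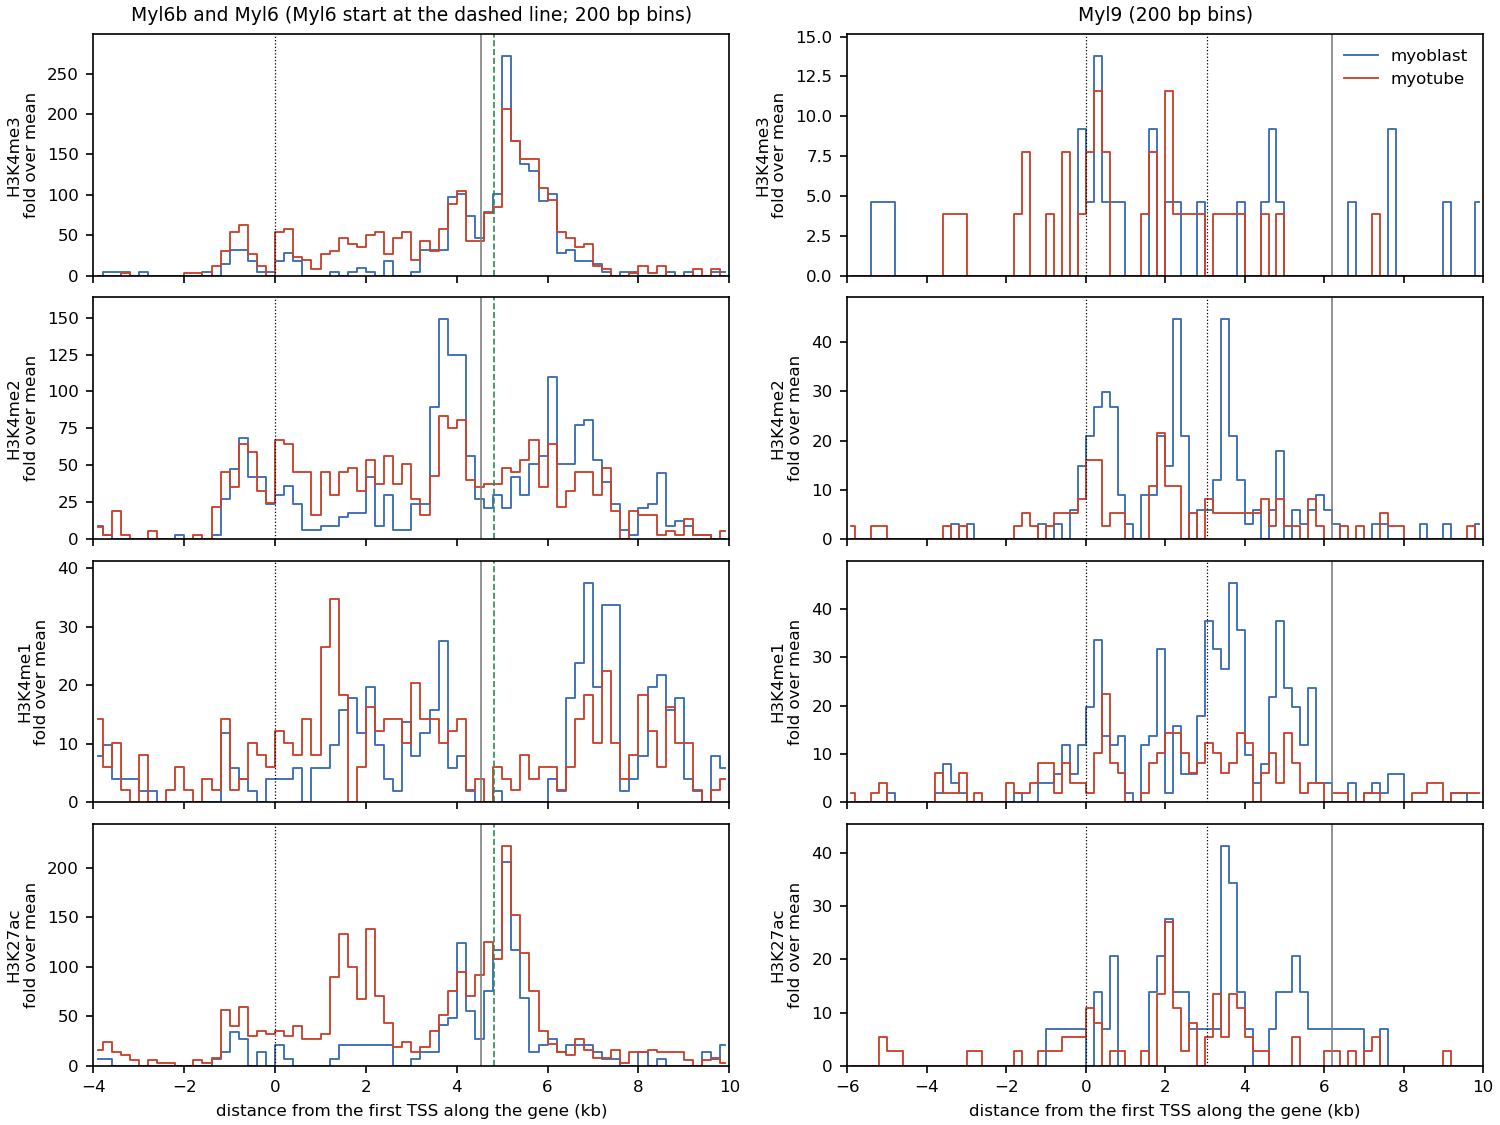
Fold over the library mean (linear axes, each panel with its own range) in 200 bp bins along Myl6b and Myl6 (left) and Myl9 (right), by distance from the first start in kb, in myoblasts (blue) and myotubes (red); dotted lines are starts, the green dashed line the Myl6 start and grey lines the end of Myl6b or Myl9. H3K4me3 of Myl6 is alike in both cell types, the gap over Myl6b fills in myotubes, and H3K4me1 over Myl9 falls from 17.5-fold to 7.71-fold over the gene.

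The myosin heavy chains that the light chains bind were read from a list of names, chosen with earlier results of these data known. Of 8 skeletal and cardiac heavy chain genes, all 8 were called higher for H3K36me3 in myotubes, against 7.55% of all genes, with a median ratio of 6.83. All 6 with enough reads were called higher for H3K4me3, against 3.88% of all genes, with a median of 8.72. Myh3, the embryonic heavy chain, went from 6 to 106 H3K4me3 reads (14.9, 6.61 to 41.4) and from 47 to 485 H3K36me3 reads (16.8, 12.5 to 23.2). Myh1, a fast adult heavy chain, went from 1 to 85 H3K4me3 reads (71.5, 12.5 to 2857), and Myh7, the slow one, from 4 to 37 (7.78, 2.80 to 30.1). Myh2, Myh4, Myh6, Myh7b and Myh8 had H3K36me3 ratios between 5.37 and 7.07. Like Myl2, Myh7 carried H3K27me3 at its start in myoblasts, with 24 reads against 6 in myotubes, a ratio of 0.350 (0.117 to 0.879). So did Myh3 (28 and 6) and Myh7b (25 and 5). These 3 of the 6 tested were called lower by total reads, against 24.2% of all genes. The median H3K27me3 ratio over all tested genes was 0.754. Of the 4 smooth and non-muscle heavy chains, 2 had enough H3K4me3 reads and none of these was called. Myh10 was lower for H3K27ac (0.299, 0.215 to 0.416) by total reads but not when scaled to the median promoter (0.530). Myh14 was higher for H3K36me3 (3.83, 3.00 to 4.92).

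Of the other light chains, Myl12a and Myl12b encode non-muscle regulatory chains and were marked in both cell types. H3K4me3 at Myl12b fell from 77 to 40 reads (0.437, 0.290 to 0.648) and H3K27ac went from 103 to 93 (0.355, 0.265 to 0.475), both called lower. Scaled to the median promoter the ratios were 0.503 and 0.628, which ends both calls. Myl12a had 120 and 178 H3K4me3 reads (1.25). Myl7, the atrial regulatory chain, was called lower for H3K4me2 on 15 and 8 reads, with an interval of 0.177 to 1.21 that includes 1, and its scaled ratio was 0.776. Of the 11 genes for kinases and the phosphatase of the regulatory chain, 10 had enough H3K4me3 reads. Of these, 3 were called higher, against 3.88% of all genes. They were Mylk, the smooth muscle kinase (6 and 27 reads, 3.79, 1.53 to 11.2), Mylk2, the skeletal kinase (10 and 48, 4.04, 2.02 to 8.95), and Mylk3, the cardiac kinase (6 and 16, 2.24, lower bound 0.834). The Mylk3 interval includes 1, but its H3K27ac was also called higher (3.48, 1.59 to 9.02). H3K36me3 was called higher over Mylk (4.57, 4.06 to 5.16), Mylk2 (2.05, 1.60 to 2.63) and Mylk4 (2.47, 2.00 to 3.05). That is 3 of 11, against 7.55% of all genes. H3K4me1 was called higher at Mylk4, from 1 to 30 reads, and at Ppp1cb, from 5 to 19, 2 of 9 tested, against 9.95% of all genes. Ppp1r12c, a regulatory subunit of the phosphatase, was called lower for H3K4me2 (0.367, 0.269 to 0.495) and H3K27ac (0.454, 0.289 to 0.716), and Rock1, a kinase that restrains it, lower for H3K27ac (0.487, 0.372 to 0.639). Scaled to the median promoter these ratios were 0.591, 0.803 and 0.861, which ends the calls, and over all genes 36.6% were called lower for H3K4me2 and 40.9% for H3K27ac. Rock2 was lower for H3K36me3 (0.432, 0.387 to 0.481).

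The genes with marks most like those of a member were found by the root mean square difference in log2 level over the 12 libraries, with 1 read added to each count. For Myl1 these were Trim63, a muscle ubiquitin ligase (0.69), Mef2c (0.86), Art5 (0.91), Ogn (0.93) and Lmod2, a thin filament protein (0.95), against a median of 2.53 over all genes, and Mylpf was 1.18 away. For Mylpf they were Art5 (0.79), Kbtbd10 (0.96), Tnnc2 (0.98), Tnnc1 (1.03) and Myom2 (1.05), against a median of 2.55. Tnnc1 and Tnnc2 are the calcium-binding troponins of slow and fast muscle. For the first Myl4 start they were Cdc27, then Stam (0.40), Tgfbrap1 (0.40), Elk4 (0.41) and 4930570N19Rik (0.41), and for Myl9 Mgst2 (0.39), BC028528 (0.40), Tpd52l1 (0.41), Nppb (0.44) and Gm15409 (0.46). The likeness includes the low marks as well as the high ones and is a description.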

How the data were processed

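ChIP-seq libraries for 6 histone marks were made from C2C12 myoblasts and myotubes, 1 library per mark and cell type, with no input library used here. For the myoblast libraries the study's methods name Mosaik, the mm9 assembly and uniquely aligned reads, and for the myotube libraries the aligner is not given in the sources used here. The deposited read files list 1 aligned read of 34 bp per line, so the counts used here are whole-number read counts that the authors neither normalised nor binned. The deposited peak files give a MACS score for each region, which the authors called per library at settings not given in the sources used here. Libraries held 1858771 to 7033100 reads, of which 0.417% to 3.14% repeated a position and strand.

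From these files, reads were extended to 150 bp and assigned by midpoint to chromosomes 1 to 19 and X. Levels were counts divided by the library mean over 2555806925 bases that are not N. Genes came from GENCODE M1 (Ensembl 65), and starts within 500 bp formed 1 group, read at the start in the group with the most H3K4me3 reads in both cell types together. The group with the most H3K4me3 reads was the main start, also for all other genes. H3K36me3 was read over the gene body. Level intervals were exact Poisson and ratio intervals exact conditional binomial, at 95%, and cover counting error only. Ratios with a count of 0 used a floor of 3 reads, and no ratio was given with both counts at 3 or below. Calling was tested on simulated Poisson counts without variation between replicates. They were drawn for starts with more myoblast H3K4me3 reads than any member called for that mark, so they do not gauge calls at low counts. Each deposited peak overlapping a start window, a gene body or the 20 kb after Myl1 by 1 bp was listed. Named genes were all 8 members, the genes called for any mark in lists of heavy chains, other light chains, kinases and the phosphatase, genes with a start within 5 kb, and the 5 genes most like Myl1, Mylpf, Myl4 and Myl9. Myl12a, Myod1 and Pparg lie outside that rule and were picked with their values in view. The members and all lists were chosen with earlier results of these data known. Sequences were read from mm9, and all 10 promoters that RefSeq gives for the 8 genes on GRCm38 were placed on it by exact match.

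Alternatives were other windows, extensions, thresholds, minima, starts, backgrounds, peak rules, scaling to the median promoter and 1 read per position. A start away from other genes was an alternative chosen after the data were seen. Python 3.11.15, NumPy 2.4.6, SciPy 1.17.1, pandas 2.3.3 and matplotlib 3.10.9 were used.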

Additional observations from a re-analysis of the deposited data

How the results depend on the processing

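No paired analysis was possible because each mark has 1 library per cell type. With 1 library a group, no replicate could be left out either, and a ratio compares those libraries only. Of 392 alternative values of single ratios, 369 stayed within the interval of the reported value, 23 moved outside it, and 0 called ratios changed direction. Uncalled ratios at the start crossed 1 with the scaling to the median promoter for H3K27ac at Myl4 (0.865 to 1.53), Myl9 (0.608 to 1.08) and Myl3 (0.787 to 1.39), for H3K4me2 at Myl6 (0.989 to 1.59) and Myl3 (0.774 to 1.25), for H3K4me3 at Myl6 (0.909 to 1.05), for H3K36me3 at Myl4 (0.932 to 1.14) and for H3K27me3 at Myl6b on 8 reads. Over the body they did so for H3K27me3 at Myl4 (1.23 to 0.885) and Myl6 (1.12 to 0.808). Setting the median ratio of promoters that had H3K4me3 peaks in myoblasts and myotubes to 1 moved log2 ratios by 0.20 for H3K4me3, 0.69 for H3K4me2, 0.05 for H3K4me1, 0.82 for H3K27ac and 0.52 for H3K27me3. It added Myl6b to the H3K4me2 calls (4) and Myl6 to the H3K27ac calls (5).

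Within 500 bp of the start, 2 genes were called higher for H3K4me3, 1 was higher and 2 lower for H3K4me1, and 1, Myl2, was lower for H3K27me3. Over the 2 kb after the start, 5 genes were higher for H3K4me2 and 1, Myl9, was lower for H3K4me1. At 1.5-fold, 1 gene was lower for H3K4me2, 2 for H3K4me1, 1 for H3K27ac and 1 for H3K27me3, and at 3-fold 2 were higher for H3K36me3, Myl4 and Myl2. With no minimum of reads 1 gene, Mylpf, was higher for H3K27me3, and at the start farthest upstream 1, Myl2, was lower. A peak had to cover 1 kb of a start window in another count, which left 3 genes with H3K4me1 and 2 with H3K27me3 in myoblasts, and 0 with either in myotubes. With a score of 100 or more, 0 genes had an H3K27me3 peak in myotubes. With the myoblast K27 lists exchanged, 5 genes had an H3K27ac and 1 an H3K27me3 peak. With the start of Myl4 next to Cdc27 left aside, 5 genes were higher for H3K4me3 and 4 for H3K4me2.

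Against 200 kb around the start in place of the genome, the mean level of the 8 genes in myoblasts and myotubes was 8.05 and 10.6 for H3K4me3, where the genome gave 25.1 and 43.0. It was 4.15 and 6.32 for H3K4me2, 1.5 and 1.69 for H3K4me1, 5.78 and 8.09 for H3K27ac, 1.37 and 1.01 for H3K27me3, and 0.436 and 0.593 for H3K36me3. The cause of these shifts was not tested. At the main start 7 of the 8 genes had under 20 H3K27me3 reads. The shallowest library was that of H3K27ac in myoblasts, with 1858771 reads.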
